A study of Mus musculus with 6 samples.

Results

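Ferroportin, ferritin, the heme breakdown enzymes and their close partners were followed as 10 genes in a macrophage-like mouse line, RAW264.7, that was being driven to become osteoclasts. They are taken by gene symbol, for their place in this pathway, and the rule that names them uses no measured value, although it was written with earlier results of these data known. All 10 were found among the 20938 genes of the expression table, and all 10 were among the 9936 tested genes, whose mean was 1 FPKM or more. FPKM is a fragment count scaled by gene length and by the fragments of the sample. The NBIF group (n = 3) is RAW264.7 under osteoclast induction with 8 µM of neobavaisoflavone, a plant isoflavone. The DMSO group (n = 3) is the same line under the same induction with the solvent alone. Every sample is therefore an induced culture, and no uninduced cells are part of the comparison. The line is a transformed macrophage line that stands in for primary osteoclast precursors. The sources used here do not give the inducing agent or its duration.

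Cells take iron into a pool that is stored in ferritin, a shell built of heavy chains (Fth1) and light chains (Ftl1), or exported by ferroportin (Slc40a1), the known iron exporter of mammalian cells. Ferritin is returned to the pool when the cargo receptor NCOA4 takes it to the lysosome. Macrophages also free iron from heme: heme oxygenase 1 (Hmox1) opens the heme ring to biliverdin, and biliverdin reductases (Blvra, Blvrb) turn biliverdin into bilirubin. BACH1 is a heme-sensing repressor that is known to sit on the Hmox1, ferritin and ferroportin genes until heme displaces it and NRF2 takes its place. Ferritin and ferroportin messages also carry iron responsive elements, hairpins in the 5′ UTR at which iron regulatory proteins block translation when iron is low.

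The hairpin of each ferritin message is shown because it is the shared sequence of the storage genes. In capitals are the bulged C and the loop, and the 5 bases between them pair with the 5 bases after the loop. The Fth1 element lies at chr19:9982732-9982760 on the plus strand and the Ftl1 element at chr7:45459779-45459807 on the minus strand, both in GRCm38, in 5′ UTRs annotated by GENCODE M21.
Fth1: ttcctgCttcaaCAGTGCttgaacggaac
Ftl1: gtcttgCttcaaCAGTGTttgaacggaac
The pattern searched was C, 5 bases, CAGTGN and 5 bases that pair with the earlier 5, with G to T pairs allowed, 17 bases in all. It was found in annotated 5′ UTRs of 31 of 20834 genes (0.149%), 3 of which are Fth1, Ftl1 and Slc40a1. A match describes the sequence and says nothing of its use in these cells.

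For BACH1 and NRF2, the letters TGACNNNGC (the core of the antioxidant response element) and GCTGAGTCA (a Maf recognition element) were searched on both strands in the 250 bases before the transcription starts that RefSeq lists for GRCm38.p6. The table has starts for 7 of the 10 genes (Fth1, Ftl1, Ncoa4, Blvra, Blvrb, Bach1 and Flvcr1), in 11 windows, and none for Slc40a1, Hmox1 and Slc48a1. TGACNNNGC was present in 3 of these 11 windows and in 3338 of 32851 windows overall (10.2%). GCTGAGTCA was present in 0 of the 11 windows and in 128 of all windows (0.39%). Sequence farther from a start was not searched, so these counts do not show whether a gene lacks such a site. The 3 matches are shown, with the matching letters in capitals, so that they can be set beside the values of their genes.
Ncoa4: aggcggggcgTGACCTGGCcggtagggta
Blvra: cacgggaattGCTCGGTCAaggctccgcc
Flvcr1: ttcacaagctTGACCCCGCccctcttctc
The printed Ncoa4 stretch lies at chr14:32165735-32165763 (plus strand), and its capital letters begin 44 bases before the third listed start. The printed Blvra stretch lies at chr2:127070598-127070626 (plus strand). Its capital letters match on the reverse strand and begin 49 bases before the start. The printed Flvcr1 stretch lies at chr1:191026323-191026351 (minus strand). Its capital letters begin 151 bases before the start and overlap an annotated exon.

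Summed over all genes, FPKM came to 484603 to 490379 in NBIF samples and to 492217 to 494172 in DMSO samples. Absolute depth is unknown from FPKM. The depth relative to DMSO 1, estimated from the steps of low values, was 0.886 to 1.02 in NBIF samples. It was 1.00 to 1.09 in DMSO samples. Each estimate other than that of DMSO 1 itself rests on only 20 to 29 genes, of 305 to 354 compared. Pearson correlations of the logged values were 0.993 to 0.996 for samples of the same group and 0.986 to 0.989 across groups. Nothing in the labels states that replicates were separate cultures, so the p-values rest on a spread that may be technical. Macrophage markers were present in every sample, but their summed level was lower with NBIF, at 1774 to 1810 FPKM in NBIF samples against 2656 to 2885 FPKM in DMSO samples. Of the 9 osteoclast markers 8 averaged at least 1 FPKM (Calcr did not), and their sum, most of it Atp6v0d2 and Ctsk, was 6020 to 6825 FPKM in NBIF samples against 7601 to 8196 FPKM in DMSO samples. These markers were mixed: Acp5, Ctsk, Mmp9 and Ocstamp fell, Dcstamp, Oscar and Atp6v0d2 did not pass, and Nfatc1 rose, at 286 ± 8.18 FPKM in NBIF and 139 ± 38.6 FPKM in DMSO (log2 change 1.07, limma adjusted p = 0.00283). Erythroid cells, the other large handlers of heme, left almost no trace: Hba-a1, Hbb-bs and Hbb-bt were listed at 0 in every sample, and the highest of the 9 erythroid markers reached 0.388 FPKM. Summed fibroblast markers stayed at or below 0.468 FPKM, B cell markers at or below 0.176 FPKM and neutrophil markers at or below 0.309 FPKM. Of the T cell markers only Lck passed 1 FPKM, and the summed T cell level was 1.04 to 1.17 FPKM in NBIF samples against 0.939 to 1.07 FPKM in DMSO samples.

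The stated purpose of setting NBIF against DMSO was to look for a mechanism behind an inhibition of osteoclast formation, which was not itself measured here. With NBIF, 5 of the 10 genes rose (Slc40a1, Fth1, Ftl1, Hmox1 and Bach1), 1 fell (Blvra), and 4 did not pass the test (Ncoa4, Blvrb, Slc48a1 and Flvcr1). The exporter, both ferritin chains, the heme-opening enzyme and the repressor were thus the members that rose, and the member that fell was a bilirubin-forming reductase. Across all tested genes 18.6% changed, 10.5% being higher and 8.08% lower. After median-ratio scaling the split over all tested genes was 692 higher against 1013 lower, in place of 1047 higher against 803 lower. NBIF and DMSO samples did not overlap for 8 of the 10 genes, against 39.0% of all tested genes. The median log2 change of the members was 0.08, and that of all tested genes was 0.04. The median absolute log2 change was 0.23 for the members and 0.11 for all tested genes.

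**Figure D1:**
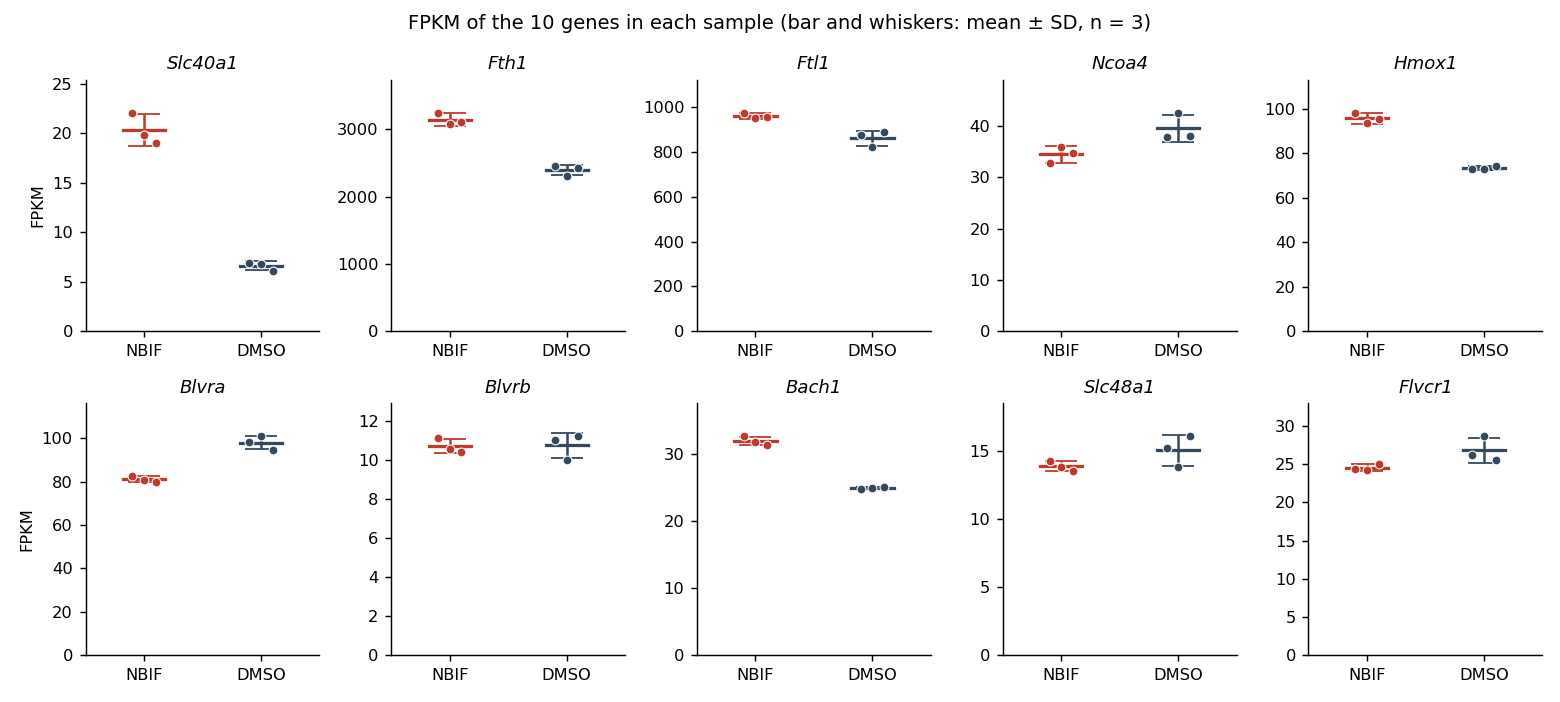
FPKM of the 10 genes in each NBIF sample (left, red) and DMSO sample (right, dark blue), each panel on its own linear axis from 0, with the mean as a bar and the SD as whiskers (n = 3 per group). The groups stand apart for 8 genes and overlap for Blvrb and Slc48a1, and Slc40a1 shows the widest gap for its level, with 19.0 FPKM as its lowest NBIF value against 6.93 FPKM as its highest DMSO value.

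Slc40a1, the ferroportin gene (GRCm38 chr1:45908068-45926523, minus strand), had 22.1, 19.8 and 19.0 FPKM in NBIF samples against 6.93, 6.83 and 6.10 FPKM in DMSO samples. Every NBIF sample was far above every DMSO sample. The mean was 20.3 ± 1.60 FPKM in NBIF and 6.62 ± 0.452 FPKM in DMSO (SD, n = 3 each), a 3.07-fold difference of means. On the log2(FPKM + 1) scale, which understates the change of low genes, it rose by 1.48 ± 0.0756 (SE; limma adjusted p = 1.34e-05), at rank 6 of the 9936 tested genes counted from the highest rise. In DMSO cells it was the lowest of the 10 genes, below Blvrb, and in NBIF cells it stood above Blvrb and Slc48a1. The call held under all 16 alternative analyses, with log2 changes of 1.12 to 1.60. Ferroportin is known as a gene of iron-recycling macrophages, and 5 of the 6 macrophage markers fell while Slc40a1 rose. In bulk RNA a gene that changes in each cell cannot be told apart from a shift in the number of cells that express it. The part of this marker shift in the Slc40a1 result was not tested.

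Fth1, the ferritin heavy chain gene whose product oxidises iron for storage (chr19:9980598-9985098, plus strand), had 3251, 3077 and 3110.2 FPKM in NBIF samples against 2449.7, 2305 and 2430.2 FPKM in DMSO samples. The groups were separated by more than the range within either. Its mean was 3146 ± 92.3 FPKM in NBIF and 2395 ± 78.7 FPKM in DMSO, 1.31-fold, and its log2 rise was 0.39 ± 0.0411 (limma adjusted p = 0.000489). Over the 6 samples only 7 tested genes had a higher mean FPKM, so this modest fold stands on one of the most abundant messages of the table.

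Ftl1, the light chain gene whose product helps to form the iron core (chr7:45457944-45459884, minus strand), had 976, 952 and 954 FPKM in NBIF samples against 873, 822 and 887 FPKM in DMSO samples. All NBIF samples were above all DMSO samples, by less than for Fth1. Means were 961 ± 13.0 FPKM in NBIF and 861 ± 34.3 FPKM in DMSO, 1.12-fold, with a log2 rise of 0.16 ± 0.0417 (limma adjusted p = 0.0313). This call is the least secure of the 6. It was lost in 8 of 16 alternatives, among them median-ratio scaling (log2 change 0.12, limma adjusted p = 0.0989) and the omission of any single sample other than DMSO 3, while quantile normalization raised the log2 change to 0.25. The annotated mouse genome holds ferritin pseudogenes, so reads of near-identical copies could have been divided among them in an unknown way. Separately, a small RNA gene and an opposite-strand transcript overlap Ftl1 exons.

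The heavy chain message stood higher relative to the light chain message in every NBIF sample than in any DMSO sample. The ratio of Fth1 to Ftl1 FPKM within a sample was 3.33, 3.23 and 3.26 in NBIF samples against 2.81, 2.80 and 2.74 in DMSO samples. The groups did not overlap, with means of 3.27 ± 0.0518 in NBIF and 2.78 ± 0.0373 in DMSO and a log2 difference of 0.23. A two-sided exact permutation test gave p = 0.1, the smallest value that 3 against 3 samples allow, so the test could not reach 0.05. Quantile normalization reduced the log2 difference to 0.13. Together the ferritin genes held 0.864%, 0.831% and 0.829% of the FPKM sum in NBIF samples against 0.672%, 0.633% and 0.674% in DMSO samples. Mean shares were 0.842% ± 0.0198 in NBIF and 0.660% ± 0.0234 in DMSO (exact permutation p = 0.1, again the smallest possible).

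The exporter message was likewise higher relative to the heavy chain message. The ratio of Slc40a1 to Fth1 FPKM was 0.00680, 0.00644 and 0.00612 in NBIF samples against 0.00283, 0.00296 and 0.00251 in DMSO samples. Its mean was 0.00645 ± 0.000341 in NBIF and 0.00277 ± 0.000233 in DMSO, a log2 difference of 1.22 with no overlap (two-sided exact permutation p = 0.1). In both groups the exporter message remained a small fraction of the heavy chain message per unit length.

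**Figure D2:**
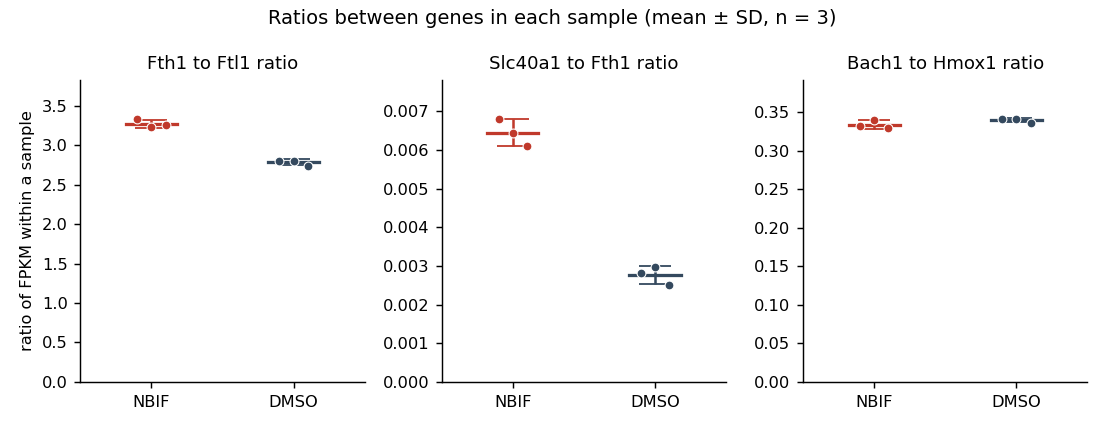
Ratio of FPKM within each NBIF sample (left, red) and DMSO sample (right, dark blue) for Fth1 to Ftl1, Slc40a1 to Fth1 and Bach1 to Hmox1, with mean and SD (n = 3 per group) on linear axes from 0. The means are 3.27 in NBIF against 2.78 in DMSO for Fth1 to Ftl1 and 0.00645 against 0.00277 for Slc40a1 to Fth1, while the Bach1 to Hmox1 values of the groups overlap near 0.333 and 0.339.

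Ncoa4 encodes the receptor that delivers ferritin to lysosomes (chr14:32159865-32179855, plus strand). It had 32.7, 35.9 and 34.8 FPKM in NBIF samples against 37.9, 42.6 and 38.1 FPKM in DMSO samples. The NBIF samples lay below the DMSO samples without overlap, but the difference did not pass the test (34.5 ± 1.59 FPKM in NBIF, 39.5 ± 2.69 FPKM in DMSO; log2 change -0.19 ± 0.0632, limma adjusted p = 0.0686). It passed only after median-ratio scaling, with a log2 change of -0.23 (limma adjusted p = 0.0367).

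Hmox1, the inducible heme oxygenase gene (chr8:75093621-75100589, plus strand), had 98.2, 93.5 and 95.2 FPKM in NBIF samples against 72.7, 73.0 and 74.3 FPKM in DMSO samples. The DMSO samples lay close together and all were below the NBIF samples. Hmox1 averaged 95.6 ± 2.41 FPKM in NBIF and 73.4 ± 0.860 FPKM in DMSO, 1.30-fold, and rose by 0.38 ± 0.0432 on the log2 scale (limma adjusted p = 0.000758). That fold is close in size to the one of Fth1.

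Blvra, the main biliverdin reductase gene (chr2:127070665-127097084, plus strand), went the other way. It had 82.4, 80.8 and 79.7 FPKM in NBIF samples against 98.1, 100.9 and 94.8 FPKM in DMSO samples. No NBIF sample reached the lowest DMSO sample, and the means were 81.0 ± 1.36 FPKM in NBIF and 97.9 ± 3.07 FPKM in DMSO (log2 change -0.27 ± 0.0448, limma adjusted p = 0.00466). The order of levels per length also turned round: Hmox1 stood above Blvra in all 3 NBIF samples and below it in all 3 DMSO samples.

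Blvrb, which encodes a reductase of flavins and of the biliverdin isomers of fetal life (chr7:27447978-27466144, plus strand), had 11.1, 10.6 and 10.4 FPKM in NBIF samples against 11.0, 9.99 and 11.2 FPKM in DMSO samples. The groups overlapped fully, with means of 10.7 ± 0.360 FPKM in NBIF and 10.7 ± 0.653 FPKM in DMSO. Its log2 change was -0.0038 ± 0.0647 (limma adjusted p = 0.976), and the sign of so small a value varied with the scaling.

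Bach1, the repressor gene (chr16:87698945-87733346, plus strand), had 32.6, 31.8 and 31.3 FPKM in NBIF samples against 24.8, 24.9 and 25.0 FPKM in DMSO samples. The DMSO samples were nearly identical, and every NBIF sample was above them. Bach1 averaged 31.9 ± 0.654 FPKM in NBIF and 24.9 ± 0.116 FPKM in DMSO, 1.28-fold, and rose by 0.35 ± 0.0474 on the log2 scale (limma adjusted p = 0.00194). The repressor message and the message of its best known target rose to a similar extent. The ratio of Bach1 to Hmox1 FPKM was 0.332, 0.340 and 0.329 in NBIF samples against 0.340, 0.341 and 0.336 in DMSO samples, overlapping between groups (means 0.333 ± 0.00582 in NBIF and 0.339 ± 0.00256 in DMSO; log2 difference -0.02, two-sided exact permutation p = 0.2).

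Slc48a1 encodes HRG1, which carries heme out of the phagolysosome (chr15:97778520-97792692, plus strand). It had 14.3, 13.8 and 13.5 FPKM in NBIF samples against 15.2, 13.8 and 16.1 FPKM in DMSO samples, so that 1 DMSO sample lay within the NBIF range. The means of 13.9 ± 0.374 FPKM in NBIF and 15.0 ± 1.13 FPKM in DMSO gave a log2 change of -0.11 ± 0.0665 that did not pass (limma adjusted p = 0.301). Exons of Hdac7 overlap this gene on the opposite strand, and without a stated strand setting their reads cannot be told apart.

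Flvcr1, which encodes a transporter described as a heme exporter and as a choline carrier (chr1:191005847-191026158, minus strand), had 24.4, 24.2 and 25.1 FPKM in NBIF samples against 26.2, 28.7 and 25.6 FPKM in DMSO samples. The groups were next to each other without overlap. Its means were 24.6 ± 0.469 FPKM in NBIF and 26.8 ± 1.64 FPKM in DMSO, and the log2 change of -0.12 ± 0.0581 did not pass (limma adjusted p = 0.183). An antisense transcript overlaps exons of Flvcr1, with the same limit on strand. The 4 members that did not pass all had a lower mean in NBIF than in DMSO, by 12.8% for Ncoa4 at most. Of these, Blvrb had no clear direction, with a change of means of -0.371% and a log2 change whose sign varied among the alternatives.

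**Figure D3:**
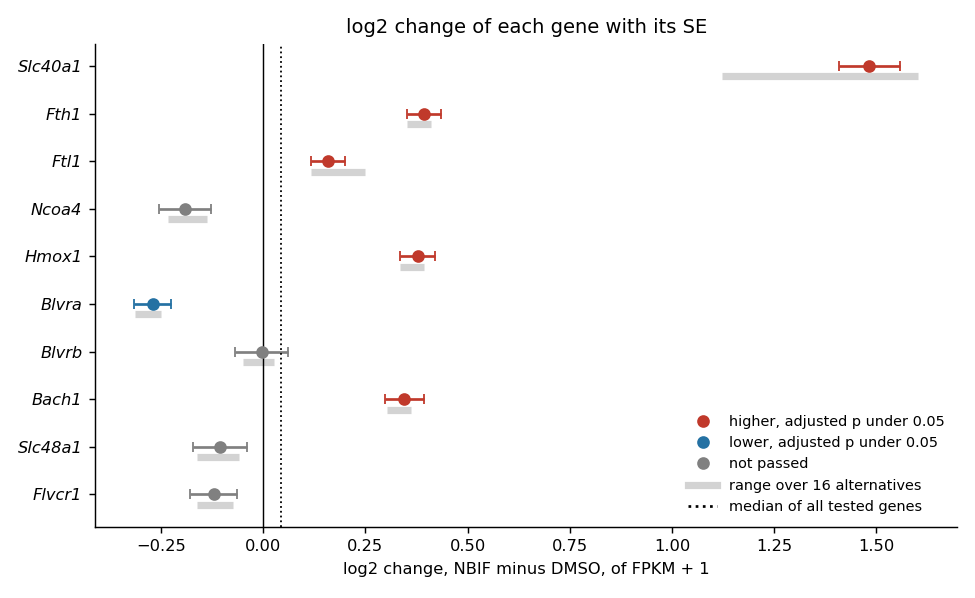
Log2 change of FPKM + 1, NBIF minus DMSO, of each gene (points, whiskers are the SE), with the range over 16 alternative analyses as a grey bar and the median of all tested genes as a dotted line. Slc40a1 lies at 1.48, Fth1, Hmox1 and Bach1 lie together between 0.35 and 0.39, and Blvra at -0.27 is the one gene below 0 that passed.

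By level per length, the 10 genes spanned a wide range. In NBIF cells the order of means was Fth1, Ftl1, Hmox1, Blvra, Ncoa4, Bach1, Flvcr1, Slc40a1, Slc48a1 and Blvrb. In DMSO cells it was Fth1, Ftl1, Blvra, Hmox1, Ncoa4, Flvcr1, Bach1, Slc48a1, Blvrb and Slc40a1. In neither group did the samples of any neighbouring pair in the order overlap. Bach1 and Flvcr1 therefore also changed places, Bach1 being higher in NBIF cells and Flvcr1 higher in DMSO cells. The sources used here do not say how gene lengths entered the FPKM, and levels of different genes depend on it.

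**Figure D4:**
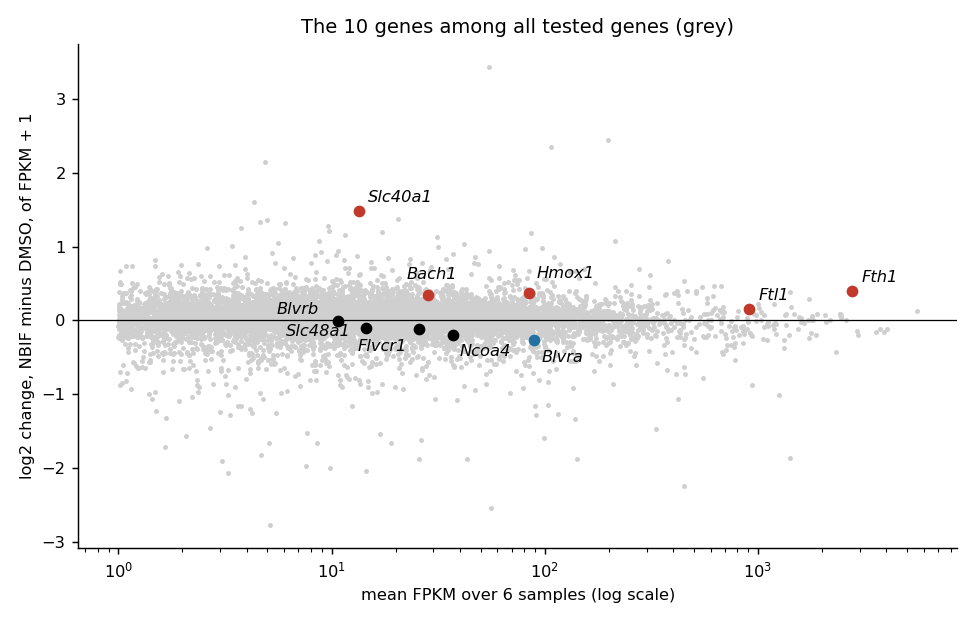
Mean FPKM over the 6 samples (log axis) against the log2 change of FPKM + 1, NBIF minus DMSO, of all 9936 tested genes (grey), with the 10 genes coloured red for higher, blue for lower and black for not passed. Fth1, at rank 8 by mean FPKM, lies at the far right, and Slc40a1, at rank 5199, lies near the top of the genes at its level.

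The genes whose pattern over the 6 samples was most like that of Slc40a1, by Euclidean distance between centred log2(FPKM + 1) values, were Fam83g (0.277), Ltbp1 (0.383), H2-Q8 (0.493), H2-Eb1 (0.497) and Klrg2 (0.548). The next gene was at 0.560, and the median distance over tested genes was 1.78. These genes share with Slc40a1 a large rise of a low to moderate message, as the measure requires. Ltbp1, which encodes a TGF-beta binding protein of the matrix, averaged 5.74 FPKM in NBIF and 1.82 FPKM in DMSO, and H2-Eb1, a class II antigen-presentation gene, averaged 7.01 FPKM in NBIF and 2.19 FPKM in DMSO. H2-Q8, a class I gene with close paralogs whose reads may be divided, averaged 14.1 FPKM in NBIF and 5.47 FPKM in DMSO. Fam83g averaged 7.001 FPKM in NBIF and 1.62 FPKM in DMSO, and Klrg2 averaged 16.4 FPKM in NBIF and 6.81 FPKM in DMSO.

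Around the exporter, Mtf1, a metal-sensing transcription factor known to drive Slc40a1, rose to 26.0 ± 0.249 FPKM in NBIF, against 20.5 ± 1.73 FPKM in DMSO (log2 change 0.33, limma adjusted p = 0.0107). It was the 1 of 13 tested ferroportin partners and regulators that passed (7.69%, against 18.6% of all tested genes). The list median was 0.01 and became -0.03 under median-ratio scaling and under quantile normalization. These scalings moved the median of all tested genes by -0.04 and -0.03, respectively. The list mean was slightly below 0. Transcripts of the ferroportin-degrading hormone gene Hamp, its paralog Hamp2 and the ferroxidase gene Heph were listed at 0 in all 6 samples. Cp, the other ferroxidase of exported iron, ranged over 3.05 to 3.70 FPKM in NBIF and 3.13 to 5.34 FPKM in DMSO and did not pass (log2 change -0.31, limma adjusted p = 0.197), although without DMSO 3 it was called lower at -0.51 (limma adjusted p = 0.00979). Spic, the factor of iron-recycling splenic macrophages, was below the filter at 0.238 ± 0.126 FPKM in NBIF and 0.140 ± 0.0537 FPKM in DMSO. Nfe2l2, the NRF2 gene, averaged 8.57 ± 0.604 FPKM in NBIF and 8.49 ± 0.725 FPKM in DMSO (limma adjusted p = 0.927), and Keap1, whose product holds NRF2 back, averaged 20.5 ± 1.23 FPKM in NBIF and 20.6 ± 2.59 FPKM in DMSO (limma adjusted p = 1.00). Both changes were near 0 and varied in sign with the scaling.

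Around ferritin, 3 of 22 tested genes of ferritin loading and turnover rose and 0 fell (list median 0.03). The changed share was 13.6%, against 18.6% of all tested genes, 10.5% being higher and 8.08% lower. The median of all tested genes was 0.04. Steap3, an iron reductase of endosomes, averaged 129 ± 8.24 FPKM in NBIF and 109 ± 8.37 FPKM in DMSO (log2 change 0.24, limma adjusted p = 0.0410). Tax1bp1, an autophagy receptor that acts with NCOA4, averaged 121 ± 3.37 FPKM in NBIF and 107 ± 3.26 FPKM in DMSO (log2 change 0.18, limma adjusted p = 0.0301), and the autophagosome gene Gabarapl2 averaged 15.6 ± 0.273 FPKM in NBIF and 13.6 ± 0.147 FPKM in DMSO (log2 change 0.19, limma adjusted p = 0.0350). All 3 calls were marginal: 0 of the 22 were higher and 2 were lower after median-ratio scaling, where the list median was -0.02. That scaling moved the median of all tested genes by -0.04. With NBIF 1, NBIF 2, NBIF 3, DMSO 1 or DMSO 2 left out, 0 of the 22 changed.

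Heme synthesis had 3 of 12 tested genes higher and 0 lower (list median 0.11). The changed share was 25%, against 18.6% of all tested genes, 10.5% being higher and 8.08% lower. Cpox, coproporphyrinogen oxidase, averaged 32.4 ± 1.01 FPKM in NBIF and 25.6 ± 0.551 FPKM in DMSO (log2 change 0.33, limma adjusted p = 0.00309). Urod, uroporphyrinogen decarboxylase, averaged 15.9 ± 0.795 FPKM in NBIF and 12.4 ± 0.466 FPKM in DMSO (log2 change 0.34, limma adjusted p = 0.00718). Alad, an earlier enzyme of the path, rose by 0.24 (limma adjusted p = 0.0441), a call lost in 9 of 16 alternatives.

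Of 8 tested genes of heme uptake, transport and other heme breakdown, 2 rose and 1 fell (list median 0.17). The changed share was 37.5%, against 18.6% of all tested genes. Por, the reductase that feeds electrons to heme oxygenase and to cytochromes P450, rose together with Hmox1, averaging 76.4 ± 3.02 FPKM in NBIF and 45.7 ± 2.82 FPKM in DMSO (log2 change 0.73, limma adjusted p = 0.000128). Hmox2, the constitutive heme oxygenase gene, ranged over 27.1 to 28.2 FPKM in NBIF and 24.02 to 27.02 FPKM in DMSO and did not pass (log2 change 0.12, limma adjusted p = 0.186). Slc46a1, a folate transporter also described as a heme carrier, rose by 0.31 (limma adjusted p = 0.0356), and Pgrmc1, which encodes a heme-binding membrane protein, fell by 0.17 (log2 scale, limma adjusted p = 0.0363). The Slc46a1 call was lost in 10 of 15 alternatives and the Pgrmc1 call in 8 of 16. Flvcr2 was below the filter at 0.0722 ± 0.0666 FPKM in NBIF and 0.0949 ± 0.0152 FPKM in DMSO.

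Other genes listed here as bound by BACH1 or NRF2, a binding not measured in these data, were split. Of 21 tested, 4 were higher, 4 were lower and 13 did not pass (list median 0.01, and -0.03 after median-ratio scaling). The changed share was 38.1%, against 18.6% of all tested genes, whose median moved by -0.04 under that scaling. Lipa, the lysosomal acid lipase gene, averaged 189.9 ± 5.34 FPKM in NBIF and 117 ± 5.56 FPKM in DMSO (log2 change 0.70, limma adjusted p = 6.24e-05). Cat rose by 0.46 (limma adjusted p = 0.000314) and G6pdx, which opens the pentose phosphate path, by 0.36 (limma adjusted p = 0.00957). In the other direction Slc7a11, the cystine importer gene, fell by 0.53 on the log2 scale (limma adjusted p = 0.00378). The other passing genes had smaller log2 changes: Prdx1 (-0.21), Txn1 (-0.20) and Gclc (-0.15) were lower, and Taldo1 (0.17) was higher. Nqo1, widely used as an NRF2 target gene, was below the filter at 0.164 ± 0.0812 FPKM in NBIF and 0.213 ± 0.0462 FPKM in DMSO. The lower side of this count was the less secure. When NBIF 1, NBIF 3, DMSO 1 or DMSO 2 was left out, 3 of the 21 were higher and 1 was lower, without NBIF 2 the counts were 4 higher and 1 lower, and with no variance trend they were also 4 higher and 1 lower.

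Iron uptake had 1 of 8 tested genes higher and 1 lower (list median 0.15). The changed share was 25%, against 18.6% of all tested genes. Slc25a37, mitoferrin 1, which brings iron into mitochondria, averaged 97.5 ± 1.54 FPKM in NBIF and 77.9 ± 3.77 FPKM in DMSO (log2 change 0.32, limma adjusted p = 0.00327). Slc39a10, known mainly as a zinc importer, averaged 22.8 ± 2.45 FPKM in NBIF and 34.2 ± 2.38 FPKM in DMSO (log2 change -0.57, limma adjusted p = 0.00289). Tfrc, the transferrin receptor gene, whose message is stabilised by iron regulatory proteins when iron is low, averaged 334 ± 20.6 FPKM in NBIF and 301 ± 22.1 FPKM in DMSO and did not pass (log2 change 0.15, limma adjusted p = 0.147).

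**Figure D5:**
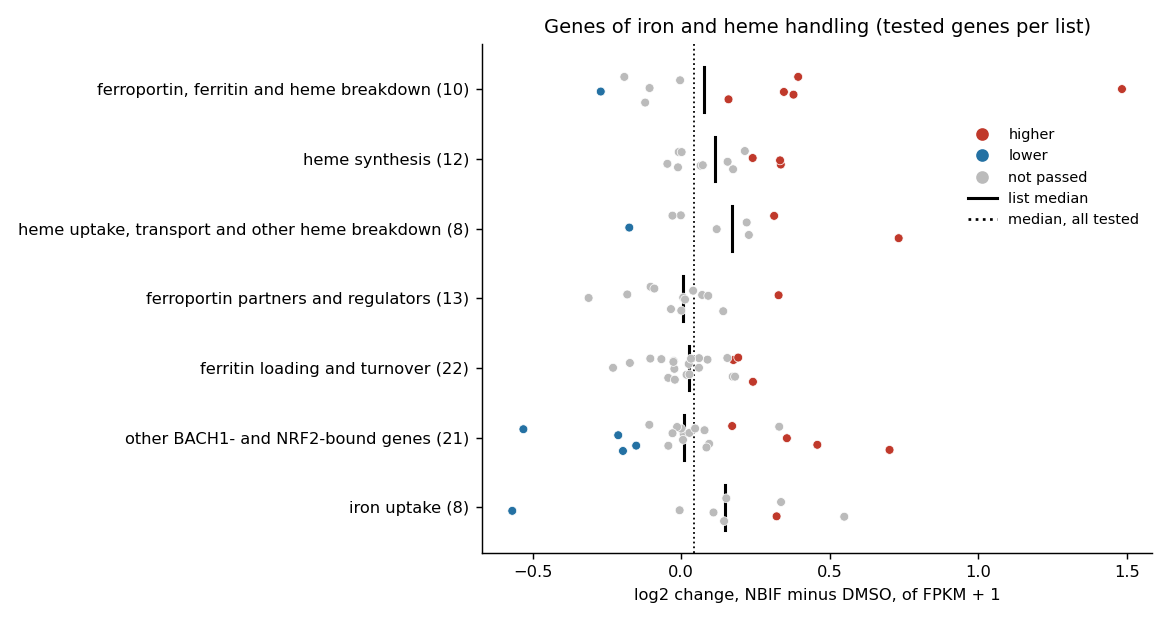
Log2 change of FPKM + 1, NBIF minus DMSO, of every tested gene of the 10 genes (top row) and of 6 lists of iron and heme genes, coloured by call, with each list's median as a black bar and the median of all tested genes as a dotted line. Slc40a1 at 1.48 lies to the right of every other gene shown, and list medians lie between 0.01 and 0.17.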

How the data were processed

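RNA of 6 samples of RAW264.7 cells was sequenced after TRIzol extraction, per the labels' protocols. The authors deposited FPKM values, 1 per gene symbol and sample. Upstream, the tools listed are HISAT2 2.0.5, featureCounts 1.5.0-p3, DESeq2 1.20.0, CASAVA 1.8 and fastp, per the submitters' processing notes. The same notes give the human build GRCh38 (hg38), although the symbols are those of mouse genes, which leaves the build used for the values uncertain. The sources used here do not give the annotation, lengths or strand setting. FPKM depends on the total of all genes, and depth per sample was only estimated, relative to DMSO 1.

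The 9936 genes whose mean over the samples reached 1 FPKM were tested in R 4.3.3 with limma 3.58.1, two-sided, on log2(FPKM + 1) with a variance trend in eBayes. P-values were adjusted over all of them by the Benjamini-Hochberg method, with a threshold of 0.05. Ratios and shares were tested by exact permutation over samples (scipy 1.17.1). The fit was also run on independent normal values simulated from the means and SDs of the logged data. That setting does not cover technical replicates or the scaling of FPKM. Named were all 10 genes, up to 4 passing genes of each list by absolute log2 change, 10 further genes whatever their values, and the 5 genes most like Slc40a1. The remaining passing genes of the BACH1 and NRF2 list were also named. Positions and sequences come from GENCODE M21 and RefSeq tables for GRCm38, matched by symbol. Alternatives were pseudocounts of 0.1 and 5, other filters, scalings and variance priors, omission of each sample, and a block for the replicate number. The members and lists were chosen with earlier results of these data known.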

Additional observations from a re-analysis of the deposited data

How the results depend on the processing

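Slc40a1, Fth1, Hmox1, Blvra and Bach1 kept their direction and passed in all 16 alternatives. Log2 changes ran from 0.35 to 0.41 for Fth1, 0.34 to 0.39 for Hmox1, -0.31 to -0.25 for Blvra and 0.30 to 0.36 for Bach1. The count of changed members stayed at 5 or 6. With 1 sample left out, the count of changed genes ranged from 999 (without NBIF 1) to 1891 (without DMSO 3). It was 1150 without NBIF 2, 1150 without NBIF 3 and 1173 without DMSO 1, against 1850 with all 6 samples. Among the other alternatives it ranged from 1497 with no filter on low values to 1932 after rescaling to an equal sum. The replicate numbers of NBIF and DMSO samples were not shown to pair them. Correlations of same-numbered deviations were 0.0784, 0.126 and 0.0355, against -0.177 to 0.0974 for other-numbered deviations. With the number as a replicate block, 1632 genes and the same 6 members changed. Blvrb, Nfe2l2 and Keap1, all far from the threshold, varied in sign. The log2 change of Blvrb was 0.0111 after rescaling to an equal sum and -0.0504 to 0.0253 with a sample left out. That of Nfe2l2 was -0.0370 to 0.0744 with a sample left out, -0.0255 after median-ratio scaling and -0.0299 with quantile normalization. That of Keap1 was -0.000527 with a pseudocount of 5, -0.0350 with quantile normalization, -0.0406 after median-ratio scaling and -0.0786 to 0.0911 with a sample left out. The cause of these sign changes was not tested. Among the scalings, median-ratio scaling shifted the median of all tested genes furthest, by -0.04 on the log2 scale. Unknown absolute depth precludes counting intervals, and 3 samples a group limit each ratio test to 0.1.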
